A study of Trametes sanguinea with 15 samples.

Results

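In Pycnoporus sanguineus CIRM-BRFM 1264, a white-rot fungus that grows on wood, 81 genes had their highest transcript level on a mixture of xylan and galactomannan. They were taken from the 11782 genes of the deposited normalised table (14165 gene models were counted). A gene was a member if its mean on xylan-galactomannan was at least 100 normalised counts and at least 2.5 times the mean on each of the other 4 carbon sources, with every xylan-galactomannan library above all 12 other libraries. A normalised count is the number of reads of a gene divided by 1 size factor per library. The rule gave 82 genes. Of 7 genes left out by name, only the aldo/keto reductase KOG1577 (1578979) met it.

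Mycelium of this 1 strain was collected on day 3 at 30 °C, and 3 libraries were made per carbon source. Maltose alone, at 20 g/l, was the control. Aspen, wheat straw, Avicel (crystalline cellulose) and the xylan-galactomannan mixture were each given at 15 g/l beside 2.5 g/l of maltose, so the groups differ in their maltose as well as in the substrate. The maltose, Avicel, wheat straw and aspen replicates were separate cultures according to the study's methods. The sources used here do not say so for xylan-galactomannan, where the spread between libraries may be technical. Library totals ranged from 24209984 to 50428442 counts. In the xylan-galactomannan, maltose and Avicel groups, the library least like the other 2 was xylan-galactomannan 2 (mean correlation of log2 scaled counts to its group 0.946), maltose 3 (0.960) and Avicel 1 (0.962), and xylan-galactomannan 1 was also at 0.960. Leaving out all 3 was tried as an alternative chosen after seeing the data.

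Xylan and galactomannan are hemicelluloses, the branched polysaccharides that lie between cellulose microfibrils in plant cell walls. Xylan has a backbone of xylose, and galactomannan has a backbone of mannose with galactose side groups. Wood-decay fungi cut such backbones with secreted xylanases and mannanases, remove side groups with debranching glycosidases and esterases, and take the released sugars up through membrane transporters. Xylose is then reduced and oxidised by sugar reductases and polyol dehydrogenases before it enters central metabolism.

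None of the 81 members was named in the study's tables of annotated genes, which list 136 genes of this strain as selected on aspen or wheat straw. The deposited files do not pair gene numbers with functions, and 0 members matched the reference gene table used here, which is of another strain. The members are therefore given by their protein numbers, without a role. The deposited lengths of their gene models had a median of 1251 bases (quartiles 987 and 1567), against 1278 (855 and 1881) for all genes of the normalised table.

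Since the rule chose the members by their level on xylan-galactomannan, those levels are a description and were not tested. The xylan-galactomannan means of the members ran from 106.3 to 105234 normalised counts, with a median of 4542. The ratio of this mean to the next highest group mean had a median of 3.92. It was under 3 for 19 members, at least 10 for 17 members and at least 100 for 2 members. The next highest group was maltose for 31 members, wheat straw for 21, aspen for 19 and Avicel for 10. Together the members held 1.85 ± 0.372% of all counts on xylan-galactomannan (SD, n = 3), against 0.316 ± 0.0223% on wheat straw, 0.306 ± 0.0251% on aspen, 0.180 ± 0.0156% on maltose and 0.162 ± 0.0127% on Avicel.

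A pair of genes stood far above the rest in both level and ratio. Gene 1629542 read 94062, 125315 and 96327 normalised counts in xylan-galactomannan libraries 1, 2 and 3. It read 84.4, 131.7 and 17.7 on maltose, 142.5, 288.9 and 445.9 on Avicel, 27.7, 16.4 and 10.4 on wheat straw, and 264.9, 64.1 and 58.4 on aspen. Its mean on xylan-galactomannan was 360 times that on Avicel, the next highest group, and its lowest libraries were the 3 of wheat straw. Gene 1612544 read 105008, 87304 and 105155 on xylan-galactomannan. In the other 12 libraries it read between 97.8 (aspen 2) and 550.9 (Avicel 3), and its ratio to the next highest group, Avicel, was 256. Between them these genes took 0.508 ± 0.0362% of the counts on xylan-galactomannan, and at most 0.00263% in any library on another carbon source. Per kilobase of length, 1612544 was the highest member (88611 normalised counts per kb) and 1629542 the second (56791).

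**Figure D1:**
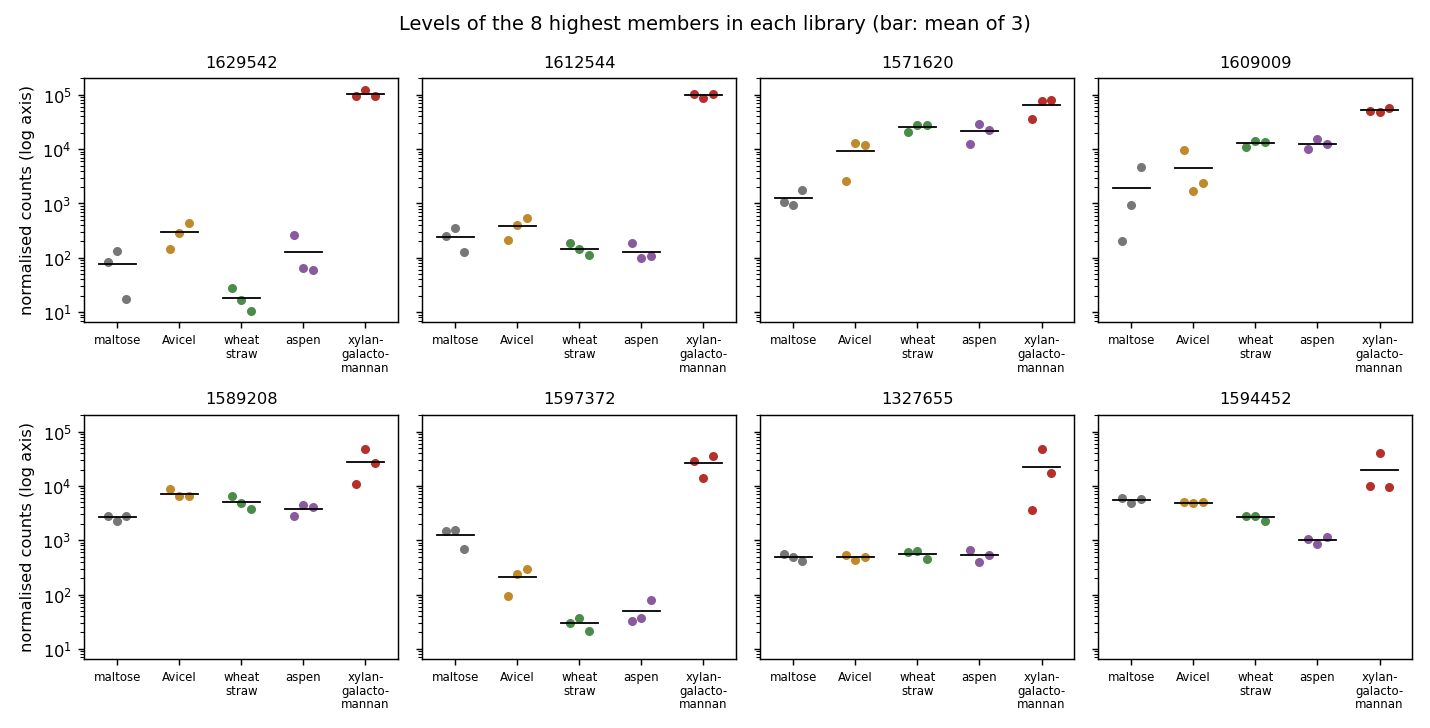
Normalised counts (log axis) of the 8 members with the highest xylan-galactomannan mean, 1 panel per gene, 1 point per library and a bar for the mean of 3 libraries in each of the 5 carbon sources. Genes 1629542 and 1612544 lie at 87304 or more normalised counts on xylan-galactomannan and at most 550.9 elsewhere, while 1571620 and 1609009 were also abundant on wheat straw and aspen.

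The other highly expressed members differed in what they did elsewhere. Gene 1571620 read 36585, 78124 and 79746 on xylan-galactomannan, but also 20486, 27919 and 27319 on wheat straw and 12692, 28826 and 22931 on aspen. It read 2578, 13129 and 12142 on Avicel and 1048, 945.4 and 1794 on maltose, so the maltose libraries lay below all others. Gene 1609009 read 49870, 47596 and 58194 on xylan-galactomannan, between 10114 and 15216 in the 6 libraries of wheat straw and aspen, and 199.7, 928.3 and 4625 on maltose, where its libraries differed most. These were the 2 members with the highest mean over the 12 libraries outside xylan-galactomannan.

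Gene 1597372 read 28632, 14221 and 34780 on xylan-galactomannan, and its next highest group was maltose with 1466, 1566 and 682. It was under 300 in every Avicel library and under 100 in every wheat straw and aspen library. Gene 1594452 read 10082, 40377 and 9535, with 5941, 4824 and 5763 on maltose and 1030, 839.1 and 1144 on aspen. For both genes the maltose libraries did not overlap with those of aspen.

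Gene 1589208 read 10957, 47110 and 26184, and its next highest group mean was that of Avicel with 8677, 6382 and 6633, a range that wheat straw 1 (6610) reached. Gene 1327655 read 3548, 47145 and 17025, against a narrow range of 394.7 to 672.6 over all 12 other libraries. For 1327655, 1589208 and 1594452 the highest library was xylan-galactomannan 2, and for 1594452 the other 2 libraries were less than 2 times the highest maltose library.

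The other 3 of the 6 highest ratios belonged to members at lower levels. Gene 1669200 read 11659, 7502 and 8618 on xylan-galactomannan, against 22.3, 226.1 and 180.9 on Avicel, the next highest group, and at most 13.4 on wheat straw. Gene 1756290 read 8897, 6520 and 8010, against 73, 201.3 and 355.8 on maltose. Gene 1673413 had a ratio of 55.0 but rested on uneven libraries (703.7, 15.2 and 133.3) and was at most 9.7 in every other library.

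**Figure D2:**
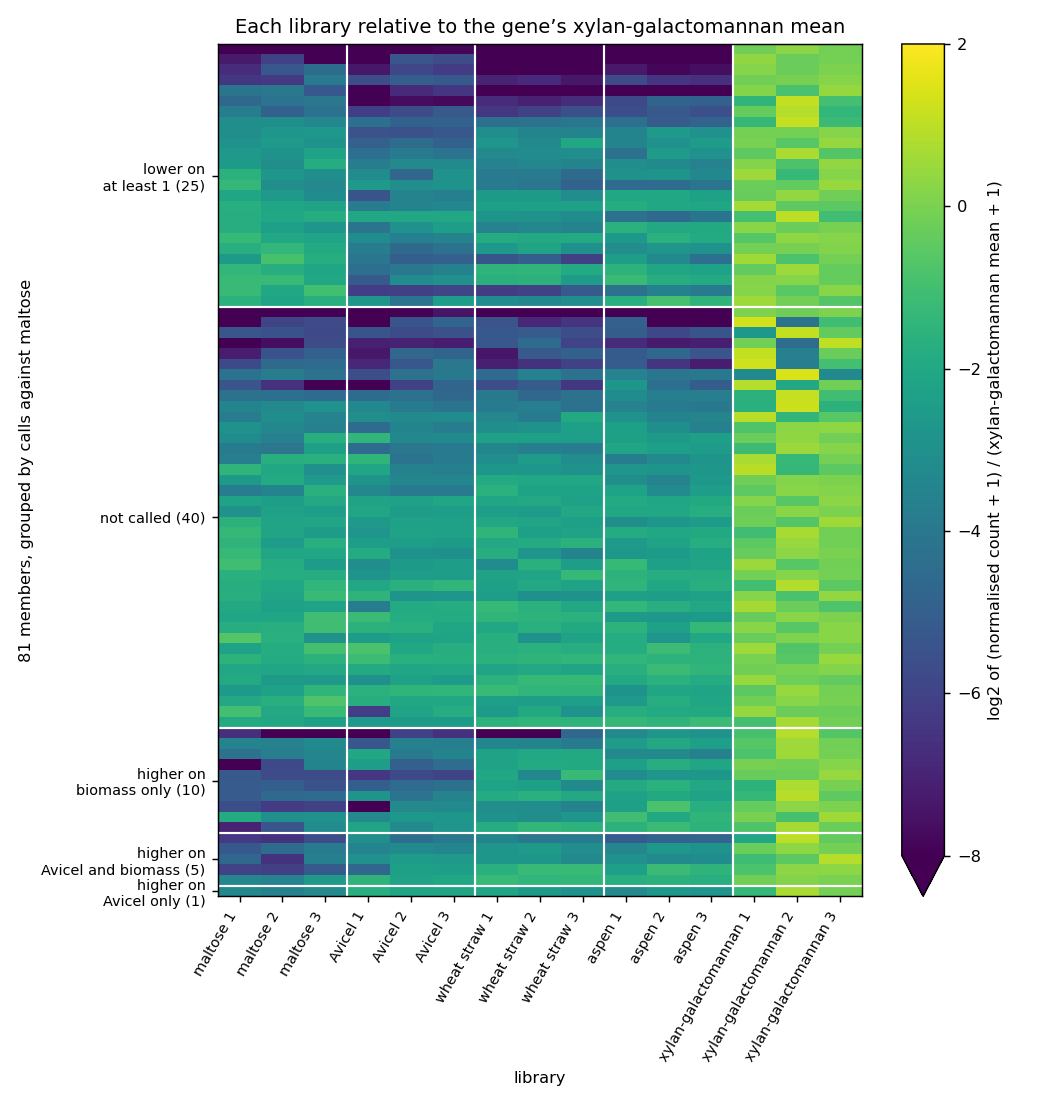
Heat map of the 81 members (rows) in the 15 libraries (columns), as log2 of the normalised count relative to the gene's xylan-galactomannan mean, with a pseudocount of 1 and values below -8 shown as -8. Rows are grouped by how the gene was called on aspen, wheat straw and Avicel against maltose: 25 lower on at least 1 of them, 40 not called, and 16 higher on biomass or Avicel.

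Replicate libraries disagreed for many members, on xylan-galactomannan and elsewhere. The coefficient of variation over the 3 xylan-galactomannan libraries had a median of 39.5% for the members, against 20.7% for the genes with a mean of at least 100 normalised counts over the groups. The same medians were 34.2% and 17.5% on maltose and 25.6% and 15.9% on Avicel. They were 20.1% and 13.7% on aspen and 18.7% and 8.35% on wheat straw. The members thus varied more between libraries in every group, but the sets were not matched for level. Outside xylan-galactomannan, the lower quartile of the members' group means was only 69.2 (wheat straw) to 92.7 (aspen). The part of level in the gap was not tested. The highest library was xylan-galactomannan 2 for 39 members, 3 for 23 and 1 for 19. In 13 members library 2 was more than 2 times both others, and in 9 members it was less than 0.5 times both others. These are 16.0% and 11.1% of the members, against 6.55% and 5.96% of the 9598 genes with a xylan-galactomannan mean of at least 100. The rule used these libraries, so the counts are a description.

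Members of the first kind included 1327655 and 1588949 (2897, 16957 and 4057). Members of the second kind included 1601300 (4562, 232.8 and 10110), the member with the second largest gap between its highest and lowest xylan-galactomannan library (43.4 times), after 1673413 (46.3 times). In both of these the low library was still above every library of the other substrates, as the rule demands. Against maltose on the other substrates, 2 of the 9 members low in library 2 were called lower on at least 1 and 7 were not called. Of the 13 high in library 2, 5 were called lower, 5 were not called, 2 were higher on biomass only and 1 on Avicel and biomass. Of all genes, 18.2% were lower, 64.2% not called, 13.7% higher on biomass only and 2.90% on Avicel and biomass. Both subsets were formed from libraries the rule used, so these counts are a description. Without library 2 the same rule gave 171 genes, of which 69 were members. Without library 1 it gave 95 genes (70 members), and without library 3 it gave 85 (77 members).

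**Figure D3:**
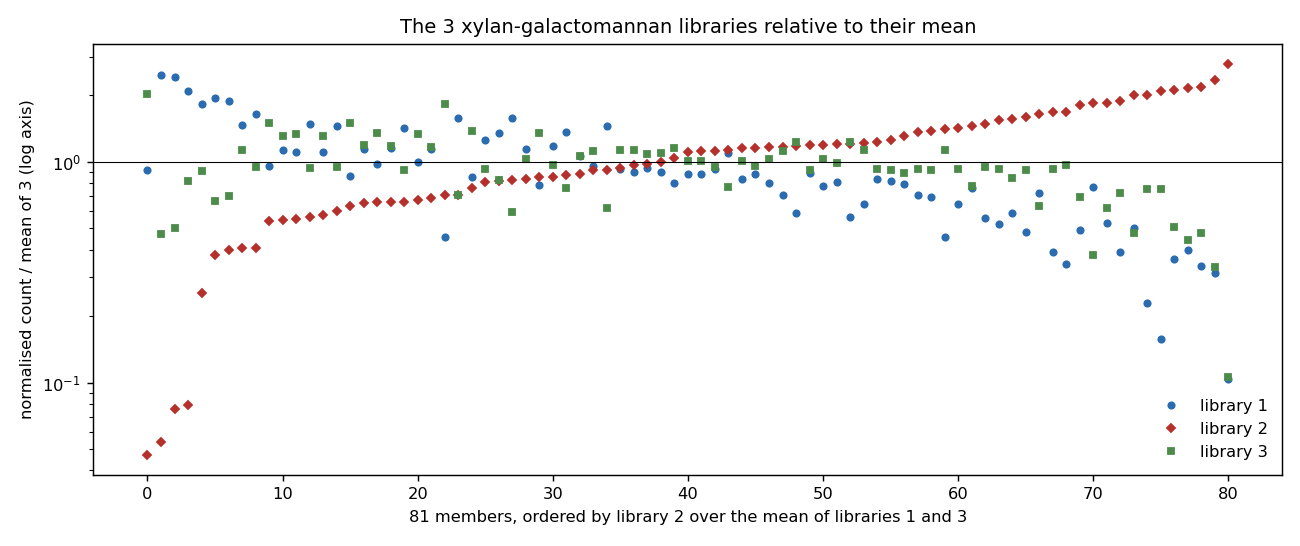
The 3 xylan-galactomannan libraries of each of the 81 members, as the normalised count divided by the mean of the 3 libraries (log axis), ordered by library 2 over the mean of libraries 1 and 3. At the left, library 2 (diamonds) falls below 0.1 times the mean for 4 members, and at the right it exceeds 2 times the mean for 8.

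Genes just inside and just outside the limits of the rule were as follows. The lowest members by level were 1593585 (mean 106.3) and 1594477 (126.6), and the nearest genes outside were 1676902 (78.0) and 1674276 (48.2). The lowest members by ratio were 1616885 (2.52) and 1318442 (2.54), and the nearest outside were 1640521 (2.497) and 1606411 (2.47).

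How the members differed among the other 4 carbon sources was not used by the rule, apart from upper limits. It held their means there to at most the xylan-galactomannan mean divided by 2.5. It also held every library of these groups below the lowest xylan-galactomannan library. Contrasts among those groups were tested with edgeR on the counts of 11724 genes, which included all 81 members. Calls needed both an adjusted p below 0.05 and a log2 fold change beyond 1 in either direction. The contrasts share libraries with each other, so their values are given side by side and are not independent.

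Against maltose, the members moved in both directions. On aspen, 13 members were called higher and 9 lower, while 14.4% and 13.9% of all genes tested were called. These counts are 16.0% and 11.1% of the members, near the background. On wheat straw 12 were called higher and 14 lower (14.8% and 17.3% of members, against 9.80% and 8.15% of all genes). On Avicel 6 were called higher and 13 lower (7.41% and 16.0%, against 3.66% and 4.44%). The median log2 fold change of the members was 0.01 on aspen, -0.11 on wheat straw and -0.49 on Avicel, and that of all genes was within 0.01 of 0 on each.

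Some of these counts changed when libraries were left out, which also leaves fewer replicates. The 14 lower on wheat straw became 9 without wheat straw 1, 10 without wheat straw 2 and 8 without wheat straw 3. They became 10 without maltose 1, 14 without maltose 2 and 13 without maltose 3. The share of all genes called in those fits is not given here. The 6 higher on Avicel became 2 without maltose 1 or maltose 2, 3 without any 1 Avicel library, and 13 without the 3 libraries named above. For these fits too the share of all genes is not given. Scaled by library size alone, the calls were 17 higher and 5 lower on aspen and 14 higher and 9 lower on wheat straw. The median of all genes shifted to 0.38 and 0.29 in that fit. It called 22.3% of all genes higher and 7.80% lower on aspen, and 14.4% and 5.19% on wheat straw.

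**Figure D4:**
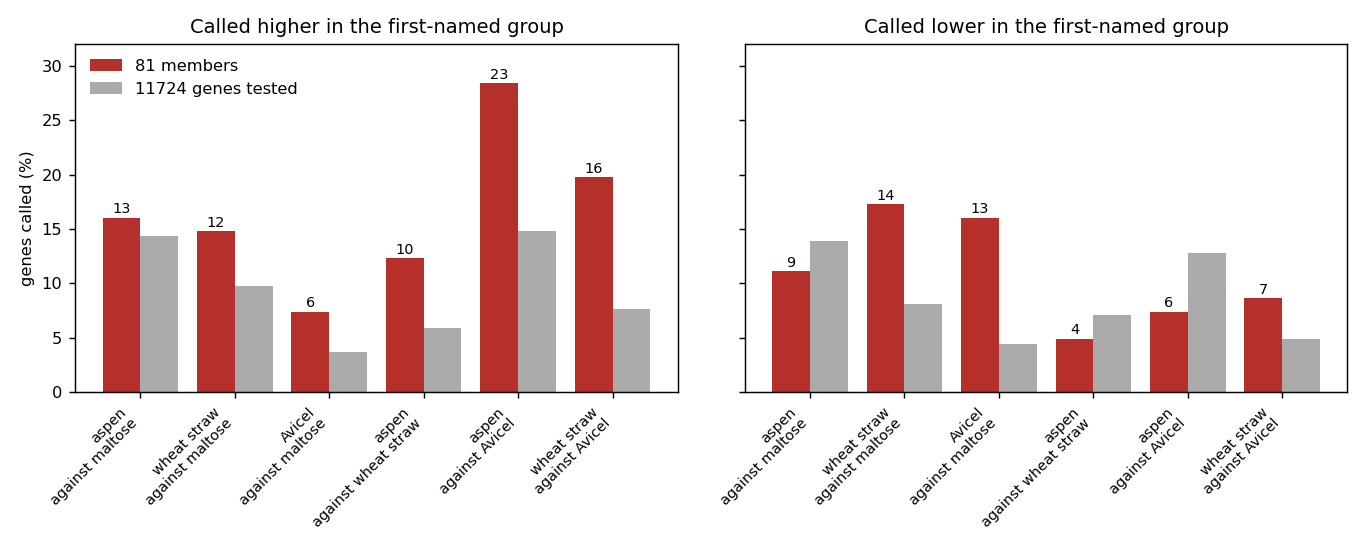
Share of the 81 members (red, with the number of genes above the bar) and of the 11724 genes tested (grey) called higher or lower in the first-named group of 6 contrasts among the 4 carbon sources other than xylan-galactomannan. The gap is wide for the 23 members (28.4% against 14.8%) higher on aspen than on Avicel, the 16 (19.8% against 7.68%) higher on wheat straw than on Avicel and the 13 (16.0% against 4.44%) lower on Avicel than on maltose.

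Of the 81 members, 40 were called on none of the 3 substrates against maltose (49.4%, against 64.2% of all genes). A further 25 were lower on at least 1 of them (30.9%, against 18.2%), and 10 were higher on aspen or wheat straw only (12.3%, against 13.7%). On Avicel and at least 1 biomass 5 were higher (6.17%, against 2.90%), and 1 was higher on Avicel only (1.23%, against 0.708%). No member was higher on 1 substrate and lower on another, and only 0.256% of all genes were. Over all 6 contrasts 32 members were never called (39.5%, against 55.3% of all genes), which does not show that they did not change: their largest absolute log2 fold change ran from 0.16 to 2.88.

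Among the members higher on the plant materials, 1571620 had the highest levels, given above. It was higher than on maltose by a log2 fold change of 4.09 ± 0.58 (SE) on aspen, 4.33 ± 0.58 on wheat straw and 2.86 ± 0.54 on Avicel (edgeR adjusted p = 0.000105, 0.000168 and 0.00377). Gene 1588034 read 304.7, 215.9 and 220 on maltose and 130.9, 203.9 and 180.1 on Avicel. It read 2705, 1112 and 4811 on wheat straw and 1245, 1655 and 1718 on aspen, so every biomass library was above all 6 others. It was higher on wheat straw than on maltose by 3.54 ± 0.44 and than on Avicel by 4.09 ± 0.45, and on aspen than on Avicel by 3.18 ± 0.44 (edgeR adjusted p = 9.8e-05, 8.73e-05 and 8.76e-05).

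Gene 1593656, with 4.6, 2.4 and 3 normalised counts on maltose, read 52.4, 144.2 and 81.4 on aspen and 31.4, 29.8 and 22.2 on wheat straw. It was higher than on maltose by 4.73 ± 0.86 on aspen and 3.01 ± 0.90 on wheat straw (edgeR adjusted p = 0.0007 and 0.0219), and its maltose libraries held only 4, 2 and 2 counts. In all, 10 members were higher than maltose on both aspen and wheat straw (12.3%, against 7.34% of all genes), 4 of them on Avicel too (4.94%, against 2.25%). The 4 were 1571620, 1649865, 176433 and 1754115, of which 1649865 and 176433 were named after their values were seen.

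Gene 1595689, the shortest member at 279 bases, held 2, 0 and 0 counts on maltose, 0, 4 and 3 on Avicel, 0, 0 and 16 on wheat straw and 48, 58 and 50 on aspen. On xylan-galactomannan it held 100, 516 and 186 counts. It was called higher on aspen than on maltose, Avicel and wheat straw (edgeR adjusted p = 0.00409, 0.00507 and 0.0175). The ratio of aspen to maltose, relative to library totals, was 63.7. Its exact 95% interval of 17.3 to 530.4 covers counting error only and treats every count as independent. Most counts of this gene were even. If the 2 reads of a pair were counted separately, which was not tested, the interval is too narrow.

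On Avicel, the other genes called higher than on maltose with large changes were 1561932 and 1754115. Gene 1561932 read 2122, 826.1 and 1067 on Avicel and 214.5, 184.2 and 344 on maltose, without overlap (log2 fold change 2.43 ± 0.60, edgeR adjusted p = 0.0184). Gene 1754115 read 40.7, 56.0 and 50.9 on Avicel and 11.4, 2.4 and 23.6 on maltose (1.999 ± 0.60, edgeR adjusted p = 0.0476), a call that was lost in 9 of 16 alternative settings.

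The 25 members lower than on maltose on at least 1 substrate are taken next. Maltose was the next highest carbon source for 18 of the 25, which the choice of genes lower than on maltose partly fixes. Gene 1592562 read 4688, 2601 and 5369 on maltose, 147.4, 154.6 and 180.1 on Avicel, 140.4, 159.5 and 288.8 on wheat straw and 580.2, 883 and 725.1 on aspen. No library of another of these substrates reached the maltose range. Its log2 fold change against maltose was -4.73 ± 0.37 on Avicel, -4.42 ± 0.36 on wheat straw and -2.53 ± 0.33 on aspen (edgeR adjusted p = 2.37e-06, 4.14e-06 and 6.31e-05).

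Gene 1597372 was lower by -5.37 ± 0.57 on wheat straw and -4.66 ± 0.55 on aspen (edgeR adjusted p = 3.22e-05 and 2.98e-05). Gene 1587276 read 45.6, 143.9 and 79.7 on maltose, 15.5, 7.7 and 8.1 on Avicel, 5.5, 7.5 and 3 on wheat straw and 51.7, 28.7 and 12.4 on aspen. It was lower on wheat straw by -4.04 ± 0.65 and on Avicel by -3.11 ± 0.61 (edgeR adjusted p = 0.000613 and 0.00467). Its libraries held only 6, 10 and 4 counts on wheat straw and 16, 8 and 10 on Avicel. These 3 genes were the members called lower on all 3 substrates (3.70%, against 1.90% of all genes). Gene 1588949 (312.7, 431.8 and 490.1 on maltose) was at 13.6, 37.7 and 34.7 on Avicel (-3.85 ± 0.63, edgeR adjusted p = 0.00143) and was also lower on wheat straw (-2.56 ± 0.58, edgeR adjusted p = 0.00508). Gene 1594452 was lower on aspen by -2.46 ± 0.43 (edgeR adjusted p = 0.000552).

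Avicel held the lowest group mean for 32 of the 81 members, wheat straw for 21, maltose for 20 and aspen for 8. Set against Avicel, 23 members were called higher on aspen and 6 lower (28.4% and 7.41%, against 14.8% and 12.8% of all genes). On wheat straw 16 were called higher and 7 lower (19.8% and 8.64%, against 7.68% and 4.91%). The median log2 fold change of the members was 0.42 on aspen and 0.22 on wheat straw, beside 0.02 and 0.01 for all genes. Scaled by library size alone, 33 were higher and 3 lower on aspen and 21 higher and 4 lower on wheat straw. The medians of all genes were 0.48 and 0.39 in that fit. It called 26.6% of all genes higher and 6.18% lower on aspen, and 13.9% and 2.39% on wheat straw. The 7 lower on wheat straw became 4 without Avicel 2, Avicel 3, wheat straw 2 or wheat straw 3, fits for which the share of all genes is not given.

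A set of 8 members was lower than maltose on Avicel but called on neither biomass (9.88%, against 1.33% of all genes). All 8 were called higher on aspen than on Avicel and 7 were called higher on wheat straw than on Avicel, which the choice of genes low on the shared Avicel libraries largely fixes. Gene 1560472 read 137.7, 172 and 228.6 on Avicel, against 997, 1031 and 761.2 on wheat straw and 1066, 812.4 and 658.4 on maltose. It was higher on wheat straw than on Avicel by 2.39 ± 0.30 (edgeR adjusted p = 0.000203). Gene 1589784 read 225.9, 308.2 and 232.6 on Avicel, against 1008, 717 and 1702 on wheat straw (2.18 ± 0.34, edgeR adjusted p = 0.0009). In both genes the Avicel libraries lay below all other libraries. Outside this set, gene 1588949 was also higher on aspen than on Avicel, by 3.03 ± 0.61 (edgeR adjusted p = 0.00148).

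The members lower on the plant materials than on Avicel included the 2 with the highest xylan-galactomannan means, 1629542 and 1612544. Gene 1629542 was lower on wheat straw than on Avicel by -3.99 ± 0.78 (edgeR adjusted p = 0.00299), and its 3 libraries of each group did not overlap. Gene 1669200 was lower than on Avicel by -3.64 ± 0.72 on wheat straw and -2.66 ± 0.67 on aspen (edgeR adjusted p = 0.00332 and 0.00562). Its Avicel libraries (22.3, 226.1 and 180.9) overlapped with those of aspen (19.3, 20.2 and 27.4) through Avicel 1. Gene 1597372 was lower by -2.79 ± 0.52 on wheat straw and -2.08 ± 0.50 on aspen, and 1594452 by -2.28 ± 0.43 on aspen (edgeR adjusted p = 0.00253, 0.00463 and 0.000878). Both 1612544 and 1669200 were among the 4 members called lower on both biomasses than on Avicel (4.94%, against 3.43% of all genes).

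Between the plant materials, 10 members were called higher on aspen than on wheat straw and 4 lower (12.3% and 4.94%, against 5.89% and 7.14% of all genes). The median log2 fold change was 0.12 for the members and 0.03 for all genes. Gene 1629542 was higher on aspen by 2.85 ± 0.75 and 1587276 by 2.53 ± 0.66 (edgeR adjusted p = 0.013 and 0.0116). Gene 1594452 was lower on aspen by -1.39 ± 0.42, 1590768 by -1.29 ± 0.43 and 1754914 by -1.09 ± 0.25 (edgeR adjusted p = 0.0245, 0.0389 and 0.00624). Gene 1754914 read 122.1, 86.9 and 160.2 on aspen and 277.2, 256.4 and 248.1 on wheat straw, without overlap.

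These counts also changed when 1 library was left out, which again leaves fewer replicates. The 10 became 5 without wheat straw 2 or wheat straw 3 and 6 without aspen 1, and the 4 became 2 without wheat straw 1, aspen 1 or aspen 2. The share of all genes in these fits is not given. The call of 1590768 was lost in 7 of 16 settings.

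The known machinery of polysaccharide use was then set beside the members. A list of 26 annotated genes covered enzymes of hemicellulose (7), pectin (5) and cellulose (6), transporters of KOG0254 (5, the major facilitator superfamily) and reductases and polyol dehydrogenases (3). KOG is a classification of eukaryotic proteins by orthology. None of the 26 is a member, and the list was drawn up with earlier results known, so its directions are not independent evidence. The 7 left out by name, picked on earlier results, were 1679979, 1577230, 1577721, 1593966, 1672735, 1673228 and 1578979. Only 1578979 met the rule. Against maltose, 19 of the 26 were higher on xylan-galactomannan and 0 lower (5.87% and 2.79% of all genes, edgeR), with 10 higher and 8 lower than on Avicel (9.10% and 4.53%). Without adjustment, 1 of the 26 was lower than on maltose at p below 0.05, and DESeq2 and limma also called 0. Against aspen 5 were higher and 9 lower (14.7% and 11.5%), and against wheat straw 3 were higher and 13 lower (11.9% and 9.60%). Gene 1578979 is in the higher count of every one of these contrasts, which the rule it met largely fixes. The median log2 fold change of the 26 was 2.78 against maltose, 0.35 against Avicel, -0.40 against aspen and -0.91 against wheat straw, and that of all genes was between 0.02 and 0.05.

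The standard errors of these changes in log2 ran from 0.19 to 0.97, with a median of 0.46. In the hemicellulose list 6 of 7 were higher than on maltose, and the levels on the plant materials were often as high. CE15 (1679979), of the glucuronoyl esterases that act between lignin and xylan, read 7476 ± 6273 normalised counts on xylan-galactomannan, 46.0 ± 10.4 on maltose and 924 ± 161 on aspen (SD, n = 3). It was higher than on maltose by 7.34 and than on aspen by 3.01 (edgeR adjusted p = 0.000173 and 0.00402). Against Avicel (1.56) and wheat straw (1.43) it was not called, and it is among the genes left out by name. GH2 (1664834), a family with mannosidases and galactosidases, was higher than on maltose, Avicel and aspen (2.63, 2.61 and 1.66). The acetyl esterase CE16 (1592100) was higher than on maltose, Avicel and wheat straw (4.18, 1.77 and 1.35), the last of which was lost in 7 of 15 settings. The endomannanase CBM1-GH5_7 (1672345) was higher than on maltose by 3.97 and lower than on Avicel by -3.28 and on wheat straw by -1.44. GH43 (1695354), a family of arabinofuranosidases and xylosidases, was higher than on maltose by 3.01 and on Avicel by 2.32. It was lower than on aspen by -2.65 and on wheat straw by -1.90. The other GH43 (1561085) was higher than on maltose by 3.71 and was not called against Avicel, aspen or wheat straw.

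**Figure D5:**
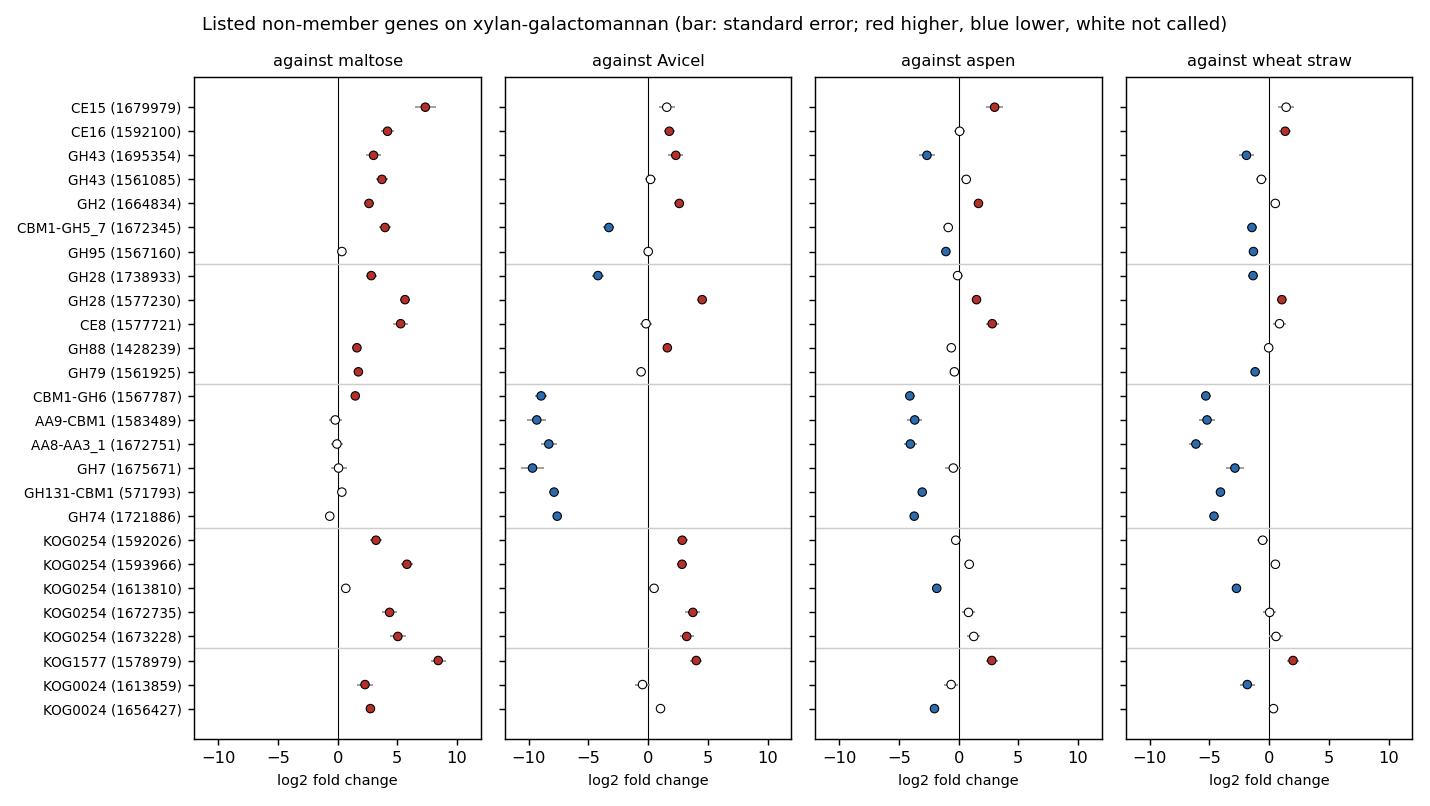
Log2 fold change (points, with the standard error as a bar) of the 26 listed non-member genes on xylan-galactomannan against each of the 4 other carbon sources, with red for called higher, blue for called lower and white for not called. The 6 cellulose-active genes lie at the far left against Avicel (-7.61 to -9.68), while most hemicellulose, pectin and transporter genes lie to the right against maltose.

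All 5 pectin genes were higher than on maltose. GH28 (1577230), a polygalacturonase family, was higher than on all 4 other carbon sources (5.64 against maltose, 4.53 against Avicel, 1.497 against aspen and 1.07 against wheat straw, the last of which was lost in 10 of 15 settings), while the other GH28 (1738933) was lower than on Avicel by -4.20. CE8 (1577721), of the pectin methylesterases, was higher than on maltose by 5.28 and on aspen by 2.81.

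The cellulose list went the other way, with all 6 lower than on Avicel and on wheat straw and 5 of 6 lower than on aspen. It holds the cellobiohydrolase families GH6 and GH7, an AA9 polysaccharide monooxygenase, a cellobiose dehydrogenase (AA8-AA3_1), GH131 and the xyloglucan-active GH74. Against maltose only CBM1-GH6 (1567787) was called, higher by 1.48 (edgeR adjusted p = 0.0148).

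Of the KOG0254 transporters, 4 of 5 were higher than on maltose and on Avicel and 0 were called higher than on aspen or wheat straw by edgeR. At an unadjusted p below 0.05 the higher ones numbered 2 against aspen and 0 against wheat straw, and DESeq2 called 1 against aspen while limma called 0. The largest change was that of 1593966, higher than on maltose by 5.80. Gene 1613810 was lower than on aspen by -1.83 and on wheat straw by -2.73. The aldo/keto reductase KOG1577 (1578979), of the enzyme family that reduces sugars to polyols, read 14453, 60903 and 34415 on xylan-galactomannan and at most 9103 ± 1228 as a mean on another substrate. Its log2 fold change was 8.42 against maltose, 4.03 against Avicel, 2.78 against aspen and 2.003 against wheat straw, and since it met the rule these values are a description.

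The listed genes were highest in xylan-galactomannan 2 in 21 of 26 cases, including all 7 hemicellulose genes, all 5 pectin genes and all 5 transporters, against 39 of 81 members. The part of this library in the result was not tested. Without it, 3 listed genes were higher than on aspen and 1 higher than on wheat straw. Without xylan-galactomannan 1 the numbers were 8 and 5, with 8 lower than on wheat straw. Without xylan-galactomannan 3 or any 1 wheat straw library, 1 gene was higher than on wheat straw. Gene 1578979 was called higher than on wheat straw in all 15 settings, which the rule it met largely fixes, so this is a description.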

How the data were processed

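Polyadenylated RNA of 15 libraries was sequenced as 150 bp paired reads. The authors filtered and trimmed reads, aligned them with TopHat2, and deposited HTSeq counts per gene model of the strain. For the aligner and counter, versions and strand setting were not given in the sources used here. Normalised values as deposited are a signal, counts divided by 1 size factor per library (DESeq 1.5 per the labels). The deposited length column (other) gives bases. The normalised table lacks 2383 models with at most 74 counts in all. All columns were matched to samples. Of the counts above 0, 55.4% were even, so halved counts were tried.

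The members and lists were chosen with earlier results of these data known. Counts were fitted with edgeR 4.0.16 in R 4.3.3 (filterByExpr, 11724 genes, TMM scaling, robust quasi-likelihood, 1 mean per group over 15 libraries, common biological coefficient of variation 0.281). Each contrast had its own Benjamini-Hochberg adjustment. The fit was tested on simulated data. RLE and library-size scaling, no filter, halved counts, a replicate block, 2-group fits, a fit without xylan-galactomannan, left-out libraries, DESeq2 1.42.0 and limma 3.58.1 were alternatives. Those for the listed genes were added after seeing the data.

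The genes named were the 8 highest members, the 6 with the highest ratio, up to 3 per direction and contrast by fold change, those nearest the limits, the 2 highest outside xylan-galactomannan, the 2 most uneven, and the listed genes. Genes 1649865 and 176433 were named after their values were seen.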

Additional observations from a re-analysis of the deposited data

How the results depend on the processing

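The numbers of members called kept within 1.5 times of the reported ones under RLE scaling, no low-count filter, halved counts and the fit without xylan-galactomannan. With library size alone, members lower than on maltose numbered 5 on aspen and 9 on wheat straw (all genes: 7.80% and 5.19%). Those lower than on Avicel numbered 3 on aspen and 4 on wheat straw (all genes: 6.18% and 2.39%). With no limit on fold change, 14 were lower on aspen than on maltose, and with limma-voom 9 were lower on wheat straw (all genes with limma-voom: 7.33%). Members higher on Avicel than on maltose numbered 10 with DESeq2 (all genes: 3.67%). They numbered 2 in the fit of those 2 groups and 13 without Avicel 1, maltose 3 and xylan-galactomannan 2. Where no share of all genes is given, a change in the members cannot be told from a change over all genes.

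With 1 library left out at a time, members lower on wheat straw than on maltose ranged from 8 to 14, higher on Avicel than on maltose from 2 to 8, higher on aspen than on wheat straw from 5 to 8 and lower from 2 to 4, and lower on wheat straw than on Avicel from 4 to 6. Listed genes higher on xylan-galactomannan ranged from 3 to 8 against aspen and from 1 to 5 against wheat straw, and those lower than on wheat straw from 8 to 15. Without Avicel 1, maltose 3 and xylan-galactomannan 2, 3 listed genes were higher than on aspen, and with library size alone 1 was higher than on wheat straw.

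The main fit did not pair cultures by replicate number. Of 30 same-number correlations of deviations from the group means, 3 were above 0.1. These were xylan-galactomannan with Avicel for numbers 1 and 2 (0.398 and 0.402) and with maltose for number 3 (0.186). In 9 of the 30 comparisons a library correlated best with its own number. With 3 libraries per group these values cannot exclude pairing. With the replicate block, aspen against maltose gave 13 members higher and 8 lower, and 1 listed gene was higher than on wheat straw.

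The rule gave 38 genes at a ratio of at least 4, 149 without the demand that libraries do not overlap, and, leaving out 1 xylan-galactomannan library at a time, 85 to 171. Of 36 named fold changes, 25 kept their call in every setting, 11 lost it in at least 1 and 0 changed sign. Counts of 10 or fewer in a library limit several members, among them the named 1595689, 1593656, 1673413, 1587276, 1754115 and 1669200. Genes 1593584 and 1673413 held such counts on all 4 other carbon sources.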
